A study of Mus musculus with 21 samples.

Results

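The genes described here are 42 mouse genes of the response to low oxygen and of glycolysis. They were chosen by symbol: the hypoxia-inducible factors (HIF), the hydroxylases and ligase subunit that control them, and genes of glucose uptake, glycolysis, mitochondrial adjustment and growth that respond to HIF. They fill 43 of the 22483 rows of the deposited tables, because the symbol Aldoa stands on a pair of neighbouring gene IDs. The count filter passed 37 of these rows, among 12360 tested genes in all. The rows that did not pass were Ndrg1, P4ha2, Pfkfb3, Ak4, Adm and Egln3, with at most 2, 12, 5.3, 3, 6 and 1 estimated counts in any library.

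Polyadenylated RNA had been sequenced as strand-specific libraries from MEDEP cells of the BRC5 line, cultured mouse erythroid progenitors that mature when given erythropoietin (Epo), the hormone of red cell production. At 0 h the cells grew with 50 nM stem cell factor (SCF) and dexamethasone (dex). Groups at 12, 24, 36, 48 and 72 h had SCF and dex removed and 4 U/ml Epo added, and a further group had Epo together with succinyl acetone (SA), a blocker of heme synthesis, for 12 h. Each of the 7 groups held 3 replicates, described as biological by the submitters. Fetal calf serum and ascorbic acid were in the growth medium, and all libraries come from this 1 cell line. Library totals lay between 16.7 and 39.3 M estimated counts. Values below are CPM, the counts scaled to a common library size with the TMM method. That scale holds the typical gene level and has no fixed sum, and on it the 11 erythroid markers found in the table, globins among them, summed to between 1040 and 1280 CPM at 0 h and between 586000 and 924000 CPM at 72 h. As a share of a library's counts these markers took at most 0.212% at 0 h and between 33.4% and 39.2% at 72 h. None of the 11 was at 0 in any library.

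HIF is a pair of an alpha subunit (Hif1a or Epas1) and the beta subunit Arnt. When oxygen and iron are at hand, prolyl hydroxylases of the Egln family mark the alpha subunit, Vhl binds the marked form and the proteasome destroys it, so the control acts mostly on the protein and not on its RNA. Where the alpha subunit persists, the pair binds short motifs in target genes, among them glucose transporters and most enzymes of glycolysis. Mature red cells have no mitochondria and live on glycolysis.

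Promoters are shown for 4 members that the results below turn on: Ankrd37, Bnip3 and Slc2a1 at 12 h and with SA, and Ldha over the whole course. Each window runs from 250 bases before to 50 bases after a gene start in RefSeq (GRCm38.p6), 5' to 3' on the gene's strand. Where a gene had several windows, the one with the most matches is shown. The windows of Ldha and Ankrd37 lie inside the spans of these genes in GENCODE M21 (chr7:46841475-46855627 and chr8:45996902-46005707). Capitals mark the HIF core motifs ACGTG and GCGTG or their reverse complements CACGT and CACGC. The windows are chr8:45999801-46000100 on the minus strand for Ankrd37, chr7:138909457-138909756 on the minus strand for Bnip3, chr7:46845554-46845853 on the plus strand for Ldha and chr4:119108495-119108794 on the plus strand for Slc2a1.
Ankrd37: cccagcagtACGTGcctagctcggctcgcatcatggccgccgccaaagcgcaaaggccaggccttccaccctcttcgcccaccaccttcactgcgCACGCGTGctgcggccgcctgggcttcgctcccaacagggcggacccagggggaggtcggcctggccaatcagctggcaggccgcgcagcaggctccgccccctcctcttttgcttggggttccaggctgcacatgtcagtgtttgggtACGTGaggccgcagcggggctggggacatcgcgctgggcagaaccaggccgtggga
Bnip3: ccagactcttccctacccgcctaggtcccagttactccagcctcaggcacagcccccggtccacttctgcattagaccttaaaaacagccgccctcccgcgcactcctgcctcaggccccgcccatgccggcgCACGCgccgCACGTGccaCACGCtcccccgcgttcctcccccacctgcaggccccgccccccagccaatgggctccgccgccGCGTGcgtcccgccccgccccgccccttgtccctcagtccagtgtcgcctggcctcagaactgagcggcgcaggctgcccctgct
Ldha: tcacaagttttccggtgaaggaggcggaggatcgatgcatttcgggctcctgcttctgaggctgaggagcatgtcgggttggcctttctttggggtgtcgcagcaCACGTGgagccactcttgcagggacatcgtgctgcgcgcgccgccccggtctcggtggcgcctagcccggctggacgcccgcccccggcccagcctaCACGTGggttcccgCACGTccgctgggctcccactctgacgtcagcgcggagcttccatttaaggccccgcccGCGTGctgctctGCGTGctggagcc
Slc2a1: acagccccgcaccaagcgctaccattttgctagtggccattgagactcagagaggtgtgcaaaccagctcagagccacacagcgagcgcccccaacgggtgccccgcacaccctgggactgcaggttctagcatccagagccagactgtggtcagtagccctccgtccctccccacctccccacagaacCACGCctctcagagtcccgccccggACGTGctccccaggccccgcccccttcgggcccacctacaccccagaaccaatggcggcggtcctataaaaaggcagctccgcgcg
The windows hold 4 matches in Ankrd37, 5 in Bnip3, 7 in Ldha and 2 in Slc2a1. In Bnip3 and Ldha the letters CACGTG count as a match on each strand. Of the 32 member symbols that passed the count filter and have a window in the table, 27 (84.4%) held at least 1 match, against 6206 of 9552 tested genes with a window (65.0%). A gene can have several windows: these members had 43 in all and the tested genes 12018. Without the count filter the figures were 32 of 37 member symbols (86.5%), with 52 windows, against 12628 of 27025 genes (46.7%), with 32851 windows. The motif contains a CpG, and the median GC content was 64.3% in the windows of the members that passed and 60.0% in those of tested genes. These matches describe the letters of the windows and nothing of what bound there.

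**Figure D1:**
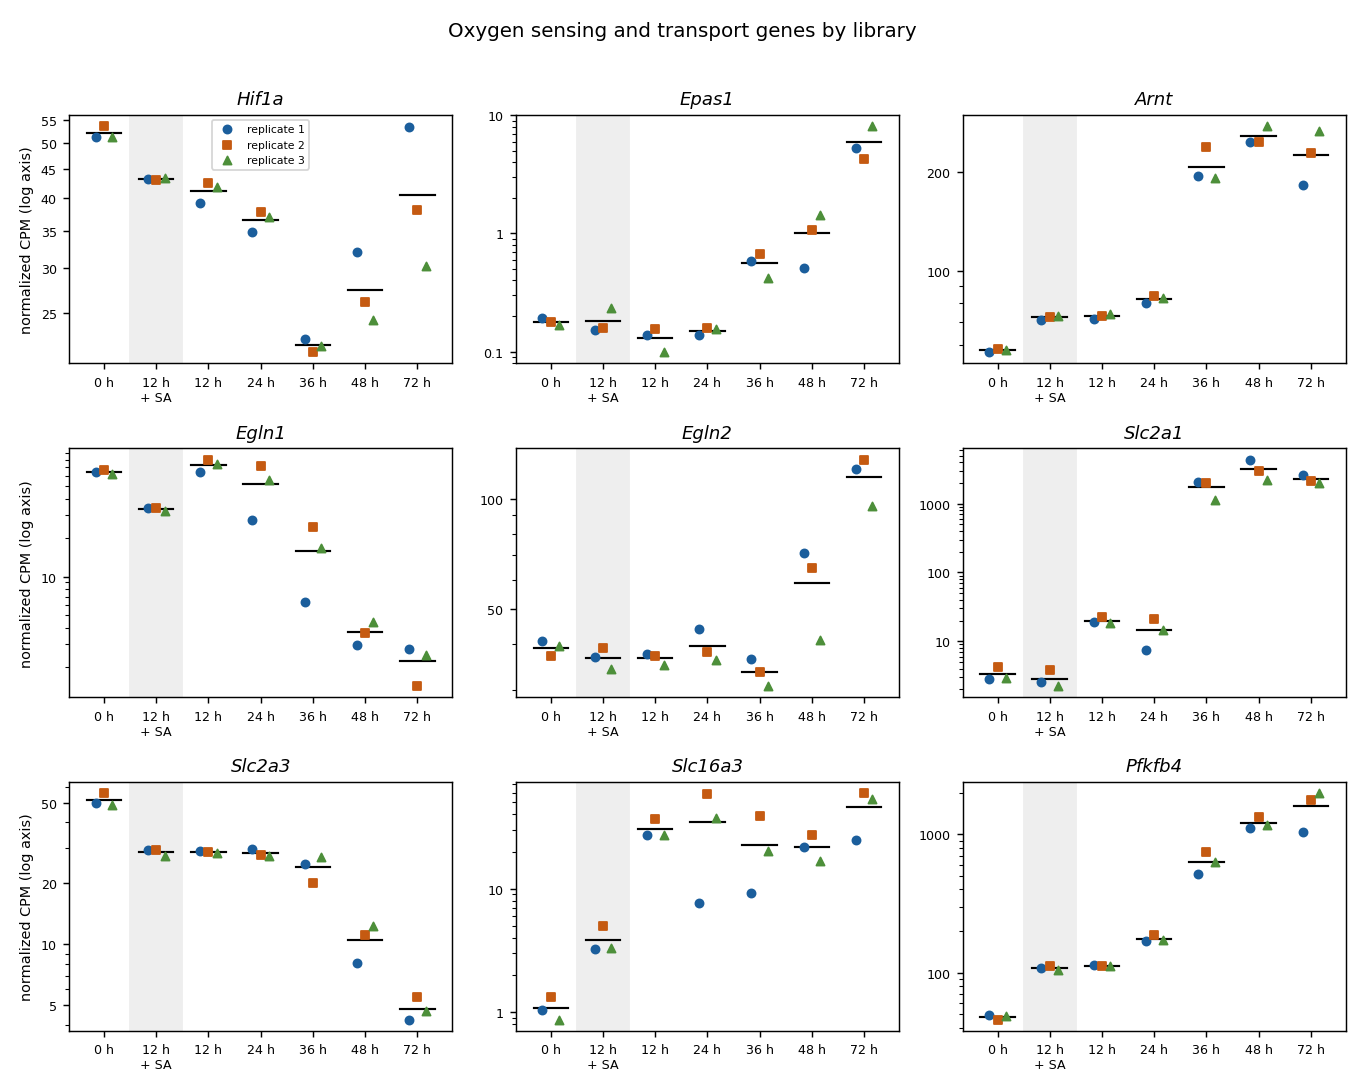
Normalized CPM on log axes in every library for 9 genes of oxygen sensing, transport and glycolytic control, in time order, with 12 h + SA (shaded) left of 12 h. Points are replicates and bars group means (n = 3). Slc2a1 lies between 2.79 and 4.29 CPM at 0 h and between 1136 and 2075 CPM at 36 h.

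Over the time course every tested row differed from 0 h at some later time (37 of 37, edgeR quasi-likelihood test of the 5 later times together, Benjamini-Hochberg adjustment over 12360 genes, threshold 0.05). This is no mark of these genes, since 97.6% of all tested genes passed. In such bulk libraries fewer cells of a kind and less RNA per cell cannot be told apart. The time of the highest group mean differed between members: 14 rows were highest at 12 h, 8 at 72 h, 5 at 0 h, 5 at 48 h, 3 at 36 h and 2 at 24 h. These peaks were read on the TMM scale, on which late levels depend, and were not counted over all tested genes.

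Counted over all 37 tested rows, 18 rose and 2 fell at 12 h against 0 h, where 25.3% of all tested genes rose and 27.6% fell. The median log2 change was 0.691 over the rows and -0.00712 over all genes. At 24 h against 12 h, 2 rose and 7 fell (19.1% and 22% of all genes). At 36 h against 24 h, 9 rose and 15 fell (34.1% and 39%), with a median of -0.501 over the rows and -0.0326 over all genes. At 48 h against 36 h, 8 rose and 12 fell (20% and 29.7%). At 72 h against 48 h, 6 rose and 12 fell (24.7% and 34.5%). At 72 h against 0 h, 15 rose and 17 fell (43.3% and 46.5%), so the shares of the rows were near those of all genes. Replicates did not overlap at 12 h against 0 h for 25 rows that were higher and 8 that were lower, beside 32.2% and 35.5% of all genes. The same counts of higher and lower rows were 6 and 9 in the step to 24 h (28.1% and 30.8% of all genes), 9 and 6 in the step to 36 h (35.5% and 40.9%), 8 and 5 in the step to 48 h (20.8% and 30.7%) and 5 and 9 in the step to 72 h (23.1% and 33%). For 72 h against 0 h they were 16 and 17 (42.5% and 47%). With library totals in place of TMM the median of all genes shifted to -0.0634, -0.238, -1.03, -0.383 and -0.259 in the 5 steps and to -1.94 at 72 h against 0 h. On that scale 16 rows rose and 1 fell at 12 h, beside 2690 and 3435 of the 12360 tested genes. At 24 h 2 rose and 10 fell (1109 and 4541 of all genes), and at 36 h 5 and 27 (1718 and 7851). At 48 h the counts were 5 and 15 (1135 and 5469). At 72 h they were 2 and 16 against 48 h (2134 and 5088) and 6 and 25 against 0 h (2667 and 8251). Among members called higher at 72 h against 0 h, Gys1, Vegfa, Plin2, Bhlhe40, Aldoa and Egln2 turned negative on that scale, as did Arnt and Hif1an at 48 h against 36 h. Over the whole course to 72 h Arnt, Bnip3 and Pfkp lost their call on that scale, and Slc2a1, Slc16a3, Pfkfb4, Epas1, Kdm3a and Ddit4 were still called higher. Of the 9 rises at 36 h against 24 h, those of Gys1, Plin2, Pfkp and Epas1 were not called on library totals.

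The oxygen-sensing genes are taken first. By group mean, Hif1a RNA was highest in the progenitors at 0 h. It stood at 51.4, 53.7 and 51.2 CPM at 0 h, at 39.2, 42.5 and 41.9 CPM at 12 h and at 34.8, 37.7 and 37.0 CPM at 24 h. It then stood at 22.5, 21.3 and 21.9 CPM at 36 h, at 32.1, 26.1 and 24.3 CPM at 48 h and at 53.4, 38.1 and 30.2 CPM at 72 h. All 3 libraries at 36 h lay below every other library, and the replicates drew apart at 72 h. The fall at 36 h against 24 h was 0.74 ± 0.14 on the log2 scale (SE, adjusted p = 5.88e-05). The fall at 12 h against 0 h was small (log2 change -0.34, adjusted p = 0.0305), and it lost its call when any of the 6 libraries was left out.

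Epas1, the other alpha subunit, had 0.191, 0.178 and 0.167 CPM at 0 h and never exceeded 0.158 CPM in any library at 12 h without SA or at 24 h. It had 0.584, 0.674 and 0.418 CPM at 36 h, 0.512, 1.06 and 1.44 CPM at 48 h and 5.32, 4.28 and 8.14 CPM at 72 h. The ranges at 72 h and 0 h were far apart, with a log2 change of 5.02 ± 0.35 (adjusted p = 2.04e-11) and 3.20 on library totals. The gene stayed low throughout: its mean level per transcript length was 0.20 TPM at 72 h, against 2.10 TPM for Hif1a at that time.

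Arnt, the shared beta subunit, rose on the TMM scale at 12, 36 and 48 h. Its libraries held between 56.9 and 58.1 CPM at 0 h, between 71.6 and 74.5 CPM at 12 h and between 80.0 and 84.3 CPM at 24 h. From 36 h on they held between 183 and 276 CPM, with no overlap with the earlier times. The log2 change of Arnt at 36 h against 24 h was 1.33 ± 0.11 (adjusted p = 4.89e-10). On library totals it was 0.33 for that step (adjusted p = 0.00104) and 0.13 at 72 h against 0 h (adjusted p = 0.15), where the TMM scale gave 1.97.

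The hydroxylases parted ways. Egln1, the main prolyl hydroxylase of most cells, had 64.4, 66.8 and 62.0 CPM at 0 h, 64.7, 80.4 and 73.9 CPM at 12 h and 27.4, 71.8 and 55.9 CPM at 24 h. It then had 6.36, 24.1 and 16.6 CPM at 36 h, 2.97, 3.63 and 4.48 CPM at 48 h and 2.73, 1.43 and 2.47 CPM at 72 h. Every library at 72 h lay below every library up to 48 h. The fall at 72 h against 0 h was 4.86 ± 0.41 on the log2 scale (adjusted p = 3.51e-10). Egln2, a second prolyl hydroxylase, had 121, 128 and 95.3 CPM at 72 h, against 40.8, 37.2 and 39.5 CPM at 0 h (log2 change 1.55 ± 0.14, adjusted p = 2.01e-09). That direction rests on the scale: with library totals in place of TMM the log2 change of Egln2 was -0.26. Egln3, another of the family, had at most 1 estimated count in any library. Hif1an, the asparaginyl hydroxylase that limits HIF activity, stayed between 40.6 and 63.4 CPM in all 21 libraries. Vhl, the substrate receptor of the ubiquitin ligase, stayed between 7.86 and 13.9 CPM. The called changes of Hif1an and Vhl were of at most 0.31 on the log2 scale. This steadiness also rests on the TMM scale. Over the 7 tested sensing rows the median log2 change at 72 h against 0 h was 0.0551 with TMM and -1.78 on library totals.

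Of the transport genes, Slc2a1, the glucose transporter GLUT1, had the largest log2 change of the 37 rows at 72 h against 0 h. It had 2.79, 4.29 and 2.96 CPM at 0 h, 18.9, 22.2 and 18.4 CPM at 12 h and 7.52, 20.8 and 14.8 CPM at 24 h. It then had 2075, 1999 and 1136 CPM at 36 h, 4354, 2939 and 2235 CPM at 48 h and 2583, 2159 and 1982 CPM at 72 h. The lowest library from 36 h on stood more than an order of magnitude above the highest earlier library. The log2 change was 2.58 ± 0.33 at 12 h against 0 h (adjusted p = 1.24e-06), 6.92 ± 0.37 at 36 h against 24 h (adjusted p = 1.21e-12) and 9.40 ± 0.42 at 72 h against 0 h (adjusted p = 6.76e-15). On library totals the last value was 7.61.

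Slc2a3, the glucose transporter GLUT3, ran the other way. It had 49.8, 55.7 and 49.1 CPM at 0 h, between 27.3 and 29.4 CPM in every library at 12 and 24 h, and 4.25, 5.51 and 4.67 CPM at 72 h. The groups at 72 h and 0 h did not overlap, and the fall was 3.42 ± 0.14 on the log2 scale (adjusted p = 1.56e-15). Per transcript length, the mean level of Slc2a3 at 0 h was 48.94 TPM, against 2.75 TPM for Slc2a1, while at 36 h the mean levels were 5.00 TPM for Slc2a3 and 280.1 TPM for Slc2a1.

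Slc16a3, the lactate exporter MCT4, had 27.5, 36.5 and 27.1 CPM at 12 h, against 1.03, 1.32 and 0.870 CPM at 0 h. These groups were far apart (log2 change 4.84 ± 0.63, adjusted p = 1.59e-06). At 24 h replicate 1 held 7.62 CPM while replicates 2 and 3 held 58.5 and 37.4 CPM, and at 36 h the values were 9.27, 38.9 and 20.1 CPM. No step after 12 h passed the test for Slc16a3 with all libraries. Without 24 h replicate 1 its log2 change at 36 h against 24 h was -1.06 (adjusted p = 0.0205).

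Of the enzymes of glycolysis, 4 of 13 rows rose and none fell in the test at 12 h against 0 h, beside 25.3% and 27.6% of all tested genes. Replicates did not overlap for 12 of the 13, of which Hk2 and Gpi1 were lower at 12 h and the others higher (35.5% and 32.2% of all genes). The risers were Pfkl and Pfkp, the liver and platelet forms of phosphofructokinase, and the aldolases Aldoa and Aldoc. Pfkl had 83.5, 108 and 95.2 CPM at 12 h, against 45.3, 48.0 and 44.9 CPM at 0 h (log2 change 1.05, adjusted p = 0.0245), a call lost without any 1 of the 0 h replicates or without 12 h replicate 2. Aldoa had 706, 759 and 694 CPM at 12 h, against 417, 386 and 375 CPM at 0 h (log2 change 0.87, adjusted p = 0.00288). The groups did not overlap for either gene. Pfkp and Aldoc stayed at or below 2.16 CPM in every library, and the Aldoc call was lost without 12 h replicate 2 (adjusted p = 0.0579). For enzymes later in the pathway the values at 12 h also lay above those at 0 h without passing the test. Pgk1, phosphoglycerate kinase, had 336, 396 and 377 CPM at 12 h, against 197, 203 and 184 CPM at 0 h (adjusted p = 0.097), and Pgam1, phosphoglycerate mutase, had 300, 376 and 350 CPM, against 163, 169 and 162 CPM (adjusted p = 0.053).

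**Figure D2:**
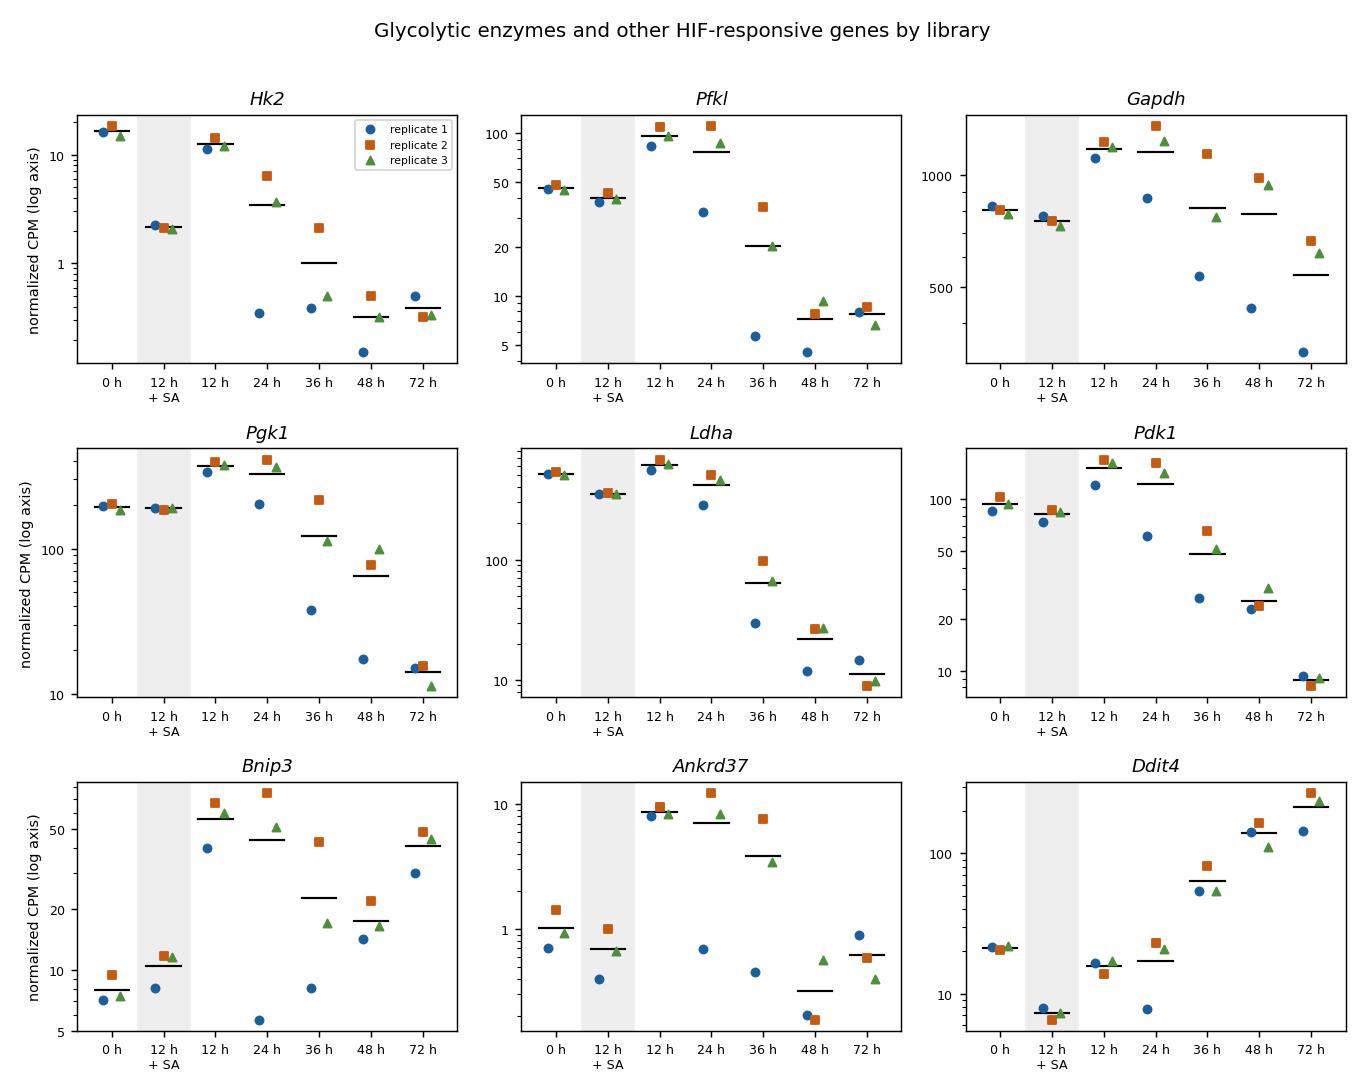
Normalized CPM on log axes in every library for 9 enzymes and other HIF-responsive members, in time order, with 12 h + SA (shaded) left of 12 h. Points are replicates and bars group means (n = 3). Replicate 1 (circles) is the lowest library for all 9 genes at 24 h, and for Pgk1 it stands at 38.0 CPM at 36 h beside 217 and 113 CPM.

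Ldha, which makes lactate from pyruvate, showed the steepest fall among the enzymes. It had 515, 529 and 508 CPM at 0 h, 554, 676 and 619 CPM at 12 h, 282, 508 and 461 CPM at 24 h, 29.6, 97.1 and 66.0 CPM at 36 h, 11.9, 26.6 and 27.1 CPM at 48 h and 14.6, 8.95 and 9.81 CPM at 72 h. All libraries at 36 h lay below all at 24 h. The log2 change of Ldha was -2.69 ± 0.32 at 36 h against 24 h (adjusted p = 2.11e-07) and -5.54 ± 0.38 at 72 h against 0 h (adjusted p = 1.02e-11).

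Hk2, the hexokinase that opens the pathway, was already lower at 24 h. It had 16.1, 18.3 and 14.8 CPM at 0 h and 11.2, 14.3 and 11.9 CPM at 12 h. It had 0.352, 6.31 and 3.68 CPM at 24 h and at most 0.507 CPM at 72 h. Every library at 24 h lay below every library at 12 h, with the fall spread widely between replicates (log2 change -1.87 ± 0.47, adjusted p = 0.00321). Hk1, the hexokinase of most tissues and no member of the 42, averaged 674.9 ± 32.7 CPM at 24 h and 368.5 ± 1.79 CPM at 12 h (SD, n = 3 each), a log2 change of 0.87 (adjusted p = 2.5e-06). It averaged 427.1 ± 89.1 CPM at 72 h and 448.4 ± 5.57 CPM at 0 h.

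At 36 h against 24 h, 8 of the 13 enzyme rows fell and 1, Pfkp, rose, beside 39% and 34.1% of all genes. On library totals 11 fell and none rose, beside 7851 and 1718 of the 12360 tested genes. The falls were -2.69 for Ldha, -1.89 for Pfkl, -1.89 for Tpi1 (triose phosphate isomerase), -1.60 for Hk2, -1.59 for Pgam1, -1.41 for Pgk1, -1.35 for Eno1 (enolase) and -1.21 for Gpi1 (glucose phosphate isomerase) on the log2 scale. For 6 of these 8, all but Ldha and Tpi1, the replicates of the 2 times overlapped. The Eno1 call was lost without 36 h replicate 1 or 24 h replicate 2. The Hk2 call was lost without 36 h replicate 1 or 3 or without 24 h replicate 2 or 3.

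At 72 h against 0 h, 9 of the 13 enzyme rows fell and 2, Aldoa and Pfkp, rose, beside 46.5% and 43.3% of all genes. On library totals 11 fell and none rose, beside 8251 and 2667 of the 12360 tested genes. Pgk1 had 15.2, 15.6 and 11.3 CPM at 72 h and Eno1 had 20.5, 19.7 and 15.8 CPM, against 262, 253 and 251 CPM of Eno1 at 0 h. The falls of Pgk1 and Eno1 were 3.79 ± 0.53 and 3.77 ± 0.55 on the log2 scale (adjusted p = 9.69e-07 and 1.93e-06), without overlap. Gapdh, glyceraldehyde phosphate dehydrogenase, had 334, 666 and 618 CPM at 72 h, against 828, 804 and 785 CPM at 0 h, and did not pass the test (log2 change -0.58 ± 0.28, adjusted p = 0.0536). Aldoa, the enzyme upstream of it, had 632, 758 and 624 CPM at 72 h, against 417, 386 and 375 CPM at 0 h (log2 change 0.77 ± 0.23, adjusted p = 0.00351), but on library totals the log2 change of Aldoa was -1.04. Per transcript length the mean levels at 0 h were 1479 TPM for Gapdh, 822.2 TPM for Ldha and 683.5 TPM for Aldoa, and at 72 h they were 76.64 TPM for Gapdh, 2.09 TPM for Ldha and 80.69 TPM for Aldoa. The second row under the symbol Aldoa (ENSMUSG00000114515.2, chr7:126800790-126809108 in GENCODE M21, minus strand) begins just beyond Aldoa itself (ENSMUSG00000030695.16, chr7:126795234-126800751, minus strand). It held at most 1.85 CPM, and reads could have been shared between the rows.

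Of the genes that set the flux, Pfkfb4 rose at each step of the course on the TMM scale. It is a bifunctional kinase and phosphatase that makes and removes the main activator of phosphofructokinase. It had 49.5, 45.8 and 48.5 CPM at 0 h, 114, 112 and 112 CPM at 12 h, 169, 186 and 172 CPM at 24 h, 517, 744 and 628 CPM at 36 h, 1111, 1345 and 1171 CPM at 48 h and 1045, 1771 and 1980 CPM at 72 h. Neighbouring times did not overlap up to 48 h. The log2 change of Pfkfb4 was 5.06 ± 0.19 at 72 h against 0 h (adjusted p = 4.08e-16), and the last step was small (0.40, adjusted p = 0.0344) and lost its call without 48 h replicate 1 or 3 or without 72 h replicate 2 or 3. On library totals the last step of Pfkfb4 was not called higher. Its relative Pfkfb3 did not pass the count filter. Pdk1, a kinase that inhibits pyruvate dehydrogenase, had 85.0, 103 and 94.0 CPM at 0 h and 122, 170 and 163 CPM at 12 h. At 72 h Pdk1 had 9.38, 8.17 and 9.01 CPM. Its rise at 12 h (log2 change 0.69, adjusted p = 0.0368) was lost without any 1 of the 0 h replicates or without 12 h replicate 2 or 3. The fall of Pdk1 at 72 h was 3.41 ± 0.32 on the log2 scale (adjusted p = 2.41e-09), without overlap.

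**Figure D3:**
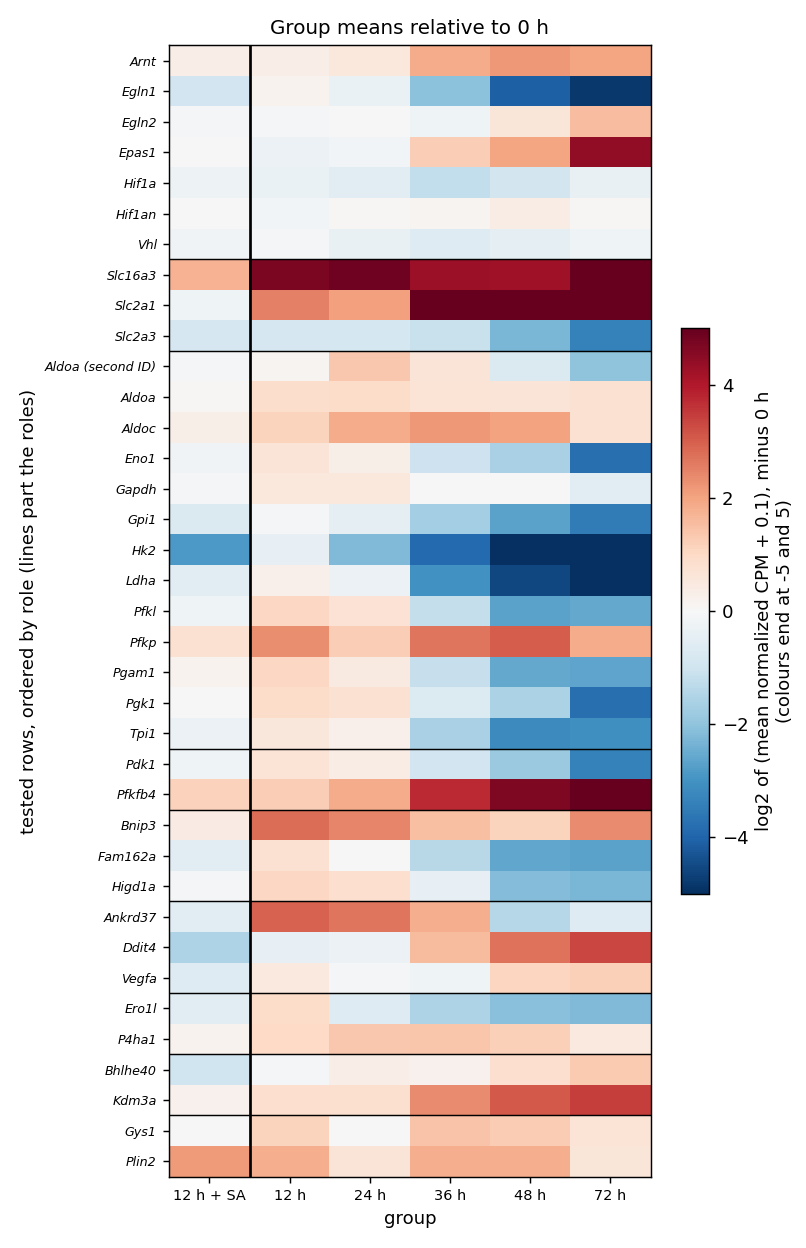
Colour shows log2 of the group mean (normalized CPM + 0.1) minus the same at 0 h for the 37 tested rows, ordered by role, with 12 h + SA left of 12 h and times running to the right. Slc2a1, Slc16a3 and Pfkfb4 end in dark red and Ldha, Hk2 and Egln1 in dark blue at 72 h, and colours end at -5 and 5.

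Among members that act on mitochondria, all 3 rose at 12 h against 0 h, beside 25.3% of all genes. On library totals 2 were called higher, without Fam162a, beside 2690 of the 12360 tested genes. Bnip3, a mitophagy receptor, had 40.2, 66.9 and 59.8 CPM at 12 h, against 7.12, 9.39 and 7.39 CPM at 0 h (log2 change 2.81 ± 0.59, adjusted p = 0.000399). The groups did not overlap. At 24 h Bnip3 had 5.68, 74.7 and 50.9 CPM, so that replicate 1 lay below every library at 0 h while the others stayed near the 12 h level. At 72 h it had 30.2, 48.0 and 44.5 CPM, and at that time it was above 0 h on the TMM scale (log2 change 2.37, adjusted p = 0.000908). On library totals that change was 0.52 and was not called (adjusted p = 0.366). Higd1a, a small protein of the respiratory chain, and Fam162a, a mitochondrial death factor, rose by 1.04 and 0.75 at 12 h and fell by 2.29 and 2.70 at 72 h against 0 h, all on the log2 scale. The 12 h call of Fam162a was lost when 0 h replicate 1, 2 or 3 or 12 h replicate 2 or 3 was left out.

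Of the signalling members, Ankrd37, an ankyrin-repeat protein known as a HIF target, had 7.99, 9.53 and 8.37 CPM at 12 h, against 0.706, 1.42 and 0.926 CPM at 0 h (log2 change 3.10 ± 0.70, adjusted p = 0.000779). At 24 h it had 0.685, 12.2 and 8.36 CPM and at 36 h 0.454, 7.66 and 3.43 CPM, and by 48 h every library was at or below 0.560 CPM. The fall of Ankrd37 at 48 h against 36 h (log2 change -3.75, adjusted p = 0.00651) was lost without 36 h replicate 2. Ddit4, an inhibitor of the growth kinase mTOR, rose late. It had 53.8, 81.6 and 54.4 CPM at 36 h, against 7.79, 22.8 and 20.7 CPM at 24 h, and 144, 268 and 235 CPM at 72 h, against 21.4, 20.6 and 21.8 CPM at 0 h. Neither pair of groups overlapped, with log2 changes of Ddit4 of 1.90 (adjusted p = 4.58e-06) and 3.34 (adjusted p = 7.2e-10). Vegfa, the vessel growth factor, averaged 33.6 ± 2.92 CPM at 48 h and 13.9 ± 6.17 CPM at 36 h (SD, n = 3 each), without overlap (log2 change 1.25, adjusted p = 0.00301).

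Ero1l, an oxidase of protein folding in the endoplasmic reticulum, had its peak at 12 h, with 204, 273 and 289 CPM, against 140, 139 and 131 CPM at 0 h, and was down to 39.2, 125 and 96.0 CPM at 24 h (log2 change -1.56 against 12 h, adjusted p = 0.00016). P4ha1, a subunit of collagen prolyl hydroxylase, had 37.8, 45.8 and 45.7 CPM at 12 h, against 20.6, 23.3 and 20.2 CPM at 0 h (log2 change 1.01, adjusted p = 0.00253). Neither gene overlapped between 12 h and 0 h. Kdm3a, a histone demethylase, had 571, 572 and 542 CPM at 72 h, against 49.0, 53.6 and 51.0 CPM at 0 h (log2 change 3.46 ± 0.18, adjusted p = 8.93e-14). Its libraries rose at 12, 36 and 48 h in the test, and on library totals the change over the course was 1.65. Bhlhe40, a repressor, had 121, 58.5 and 37.7 CPM at 72 h, against 32.5, 26.7 and 28.8 CPM at 0 h (log2 change 1.30, adjusted p = 0.000572; -0.42 on library totals).

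Of the storage genes, Plin2, which coats lipid droplets, had 303, 320 and 307 CPM at 12 h, against 85.2, 88.6 and 89.4 CPM at 0 h. It had 142, 130 and 143 CPM at 24 h, 259, 363 and 295 CPM at 36 h and 127, 137 and 140 CPM at 72 h. The log2 changes of Plin2 over the steps into 12, 24 and 36 h were 1.82, -1.17 and 1.15 (adjusted p = 9.17e-12, 2.85e-08 and 3.2e-09), each without overlap. Gys1, glycogen synthase, took the same directions, with 10.7, 10.9 and 11.6 CPM at 0 h, 21.1, 24.8 and 26.4 CPM at 12 h, 6.71, 14.1 and 12.8 CPM at 24 h and 30.2, 37.4 and 20.8 CPM at 36 h. Its log2 changes were 1.12, -1.11 and 1.42 over these steps (adjusted p = 8.06e-05, 0.000176 and 3.82e-06), and its groups at neighbouring times did not overlap. On library totals the step into 36 h was 0.14 for Plin2 and 0.40 for Gys1, and neither was called (adjusted p = 0.23 and 0.0789).

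With SA for 12 h, members of glucose and lactate transport, glycolysis and HIF response were lower than with Epo alone, led by Ankrd37, Slc16a3, Slc2a1 and Hk2. In the fit of all 21 libraries 6 rows fell and none rose, beside 0.364% of all tested genes lower and 0.0162% higher. The median log2 change was -0.889 over the 37 rows and 0.0189 over all genes. Of the 37 rows 31 had a negative change, and 28 were lower with no overlap of replicates, beside 9.86% of all genes, while 2 were higher with no overlap, beside 14.4%. No member passed the higher test. At an unadjusted p under 0.05, 1 member was higher, and all tested genes were not counted at that threshold. The 6 libraries fitted alone called 1 higher, beside 0.801% of the genes tested there.

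Slc2a1 had 2.59, 3.77 and 2.26 CPM with SA at 12 h, against 18.9, 22.2 and 18.4 CPM at 12 h without it. The log2 change was -2.77 ± 0.33 (adjusted p = 0.000228), and of the 6 calls it alone held whichever of the 6 libraries was left out. Slc16a3 had 3.22, 5.00 and 3.32 CPM with SA, against 27.5, 36.5 and 27.1 CPM at 12 h (log2 change -2.97 ± 0.53, adjusted p = 0.0111). Ankrd37 had 0.400, 0.991 and 0.667 CPM with SA, against 7.99, 9.53 and 8.37 CPM at 12 h (log2 change -3.62 ± 0.72, adjusted p = 0.022). The groups were clearly apart for all 3 genes.

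Hk2 had 2.27, 2.11 and 2.06 CPM with SA, against 11.2, 14.3 and 11.9 CPM at 12 h (log2 change -2.54 ± 0.48, adjusted p = 0.018). Ero1l had 86.0, 93.3 and 93.8 CPM with SA, against 204, 273 and 289 CPM at 12 h (log2 change -1.49, adjusted p = 0.0174), and Gys1 had 11.5, 11.1 and 10.8 CPM, against 21.1, 24.8 and 26.4 CPM (log2 change -1.11, adjusted p = 0.0111). None of these 3 overlapped either.

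Set beside the 0 h libraries, the SA libraries took different places. Slc2a1 had 2.79, 4.29 and 2.96 CPM at 0 h, a range that overlaps that with SA, and Ankrd37 overlapped likewise with 0.706, 1.42 and 0.926 CPM. Slc16a3 with SA lay above 0 h, where the highest library held 1.32 CPM. By group mean Plin2 and Pfkfb4, among others, also lay above 0 h with SA. Hk2, Ero1l, Gpi1, Ldha, Egln1 and Ddit4, among others, lay with SA below 0 h in every library: Egln1 had 34.1, 33.9 and 32.0 CPM with SA, against 64.4, 66.8 and 62.0 CPM at 0 h, and Ddit4 had 7.93, 6.54 and 7.30 CPM with SA, against 21.4, 20.6 and 21.8 CPM at 0 h. These are levels side by side, without a test between SA and 0 h or a count of members on either side.

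**Figure D4:**
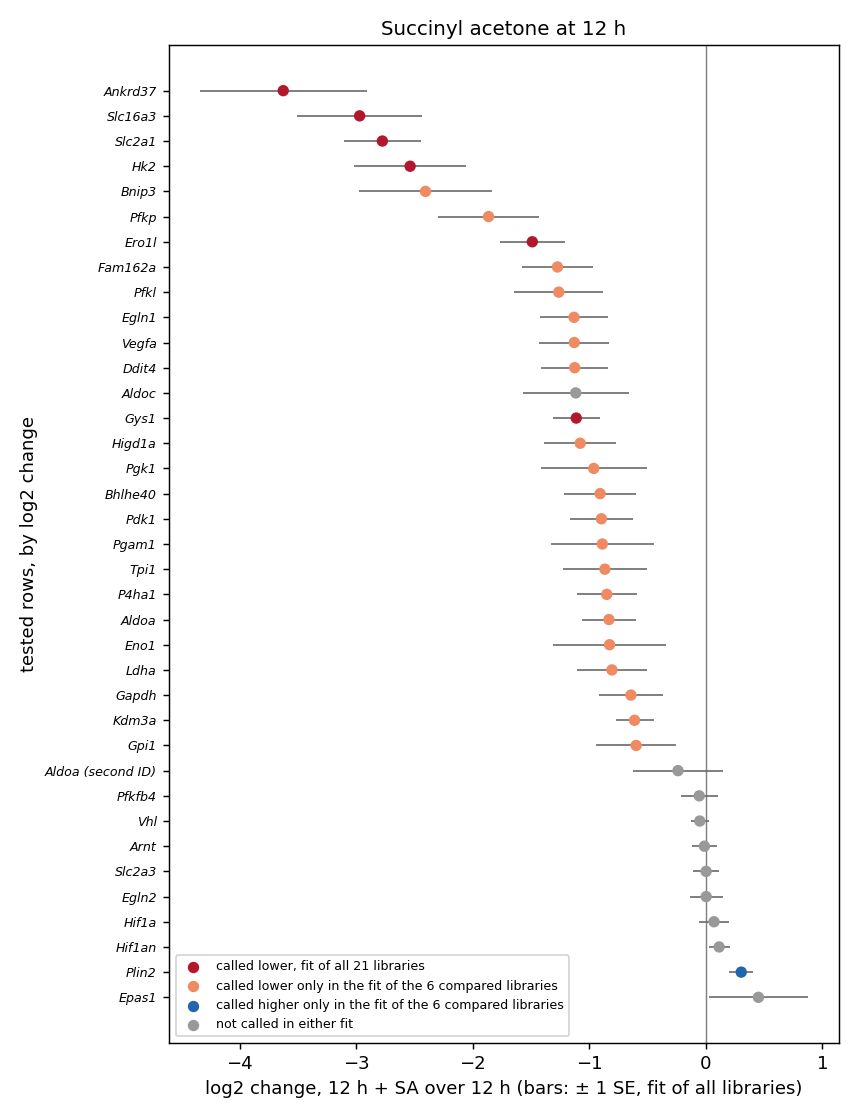
Log2 change of 12 h + SA over 12 h for the 37 tested rows, with bars of 1 SE from the fit of all 21 libraries. Colours tell which fit called a row. The 6 rows called in that fit lie between -3.62 and -1.11, and 6 rows lie at or above 0.

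Other members also stood apart between the groups without passing the test in that fit. Bnip3 had 8.14, 11.7 and 11.6 CPM with SA, against 40.2, 66.9 and 59.8 CPM at 12 h (log2 change -2.40 ± 0.57, adjusted p = 0.081). Pfkl, Vegfa and Pgk1 had log2 changes of -1.26, -1.13 and -0.96 (adjusted p = 0.273, 0.151 and 0.804), with no overlap of replicates. The count of calls differed between fits, and the reason was not tested. In a fit of the 6 compared libraries alone 26 of 36 tested members were lower and 1 was higher, beside 3.38% and 0.801% of the 11115 genes tested there. There Bnip3 had an adjusted p of 6.59e-05 and Pgk1 of 2.2e-05, with log2 changes of -2.42 and -0.98. Without 24 h replicate 1 and 36 h replicate 2, an alternative chosen after seeing the data, the fit of the rest called 18 members lower and 0.682% of all genes lower. With the replicate number as a block, 10 members were lower (0.639% of all genes), Bnip3, Fam162a, Pfkp and Egln1 being the added ones. DESeq2 called 13 lower (1.02% of all genes).

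Most oxygen-sensing genes had log2 changes near 0 with SA. Hif1a had 43.3, 43.0 and 43.4 CPM with SA, against 39.2, 42.5 and 41.9 CPM at 12 h (log2 change 0.07 ± 0.13), a small gap without overlap. Arnt, Vhl, Egln2 and Slc2a3 had log2 changes between -0.05 and 0.00, each with an SE of at most 0.14, and Pfkfb4 had -0.06 ± 0.16. Egln1 alone among the sensing genes was lower in all 3 libraries (log2 change -1.13 ± 0.29, adjusted p = 0.125). Plin2 had 373, 395 and 378 CPM with SA, against 303, 320 and 307 CPM at 12 h, without overlap (log2 change 0.30 ± 0.10, adjusted p = 0.4), and it was the member called higher in the fit of the 6 libraries (adjusted p = 0.00523). The summed CPM of the 11 erythroid markers lay between 9470 and 10800 with SA and between 13600 and 14700 at 12 h, all 11 above 0 in all 6 libraries. Its part in these values was not tested.

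The replicates at 24, 36 and 48 h did not agree on these genes. That single replicates differ at 24 and 36 h was known when the genes were chosen. The shares below describe that difference and do not test it. Each library was set against the mean of the other 2 of its group, as log2 CPM. At 24 h the median over the 37 rows was -0.865 in replicate 1, 0.625 in replicate 2 and 0.282 in replicate 3, where the median of all tested genes lay between -0.00345 and 0.00161. In replicate 1, 29 of 37 rows (78.4%) lay below both others, beside 37.4% of all genes. At 36 h the medians were -0.808 in replicate 1 and 0.832 in replicate 2, and 31 rows (83.8%) of replicate 2 lay above both others, beside 34.5% of all genes. At 48 h replicate 1 stood at -0.271. At 0 h and 12 h, with and without SA, the medians lay between -0.168 and 0.155.

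**Figure D5:**
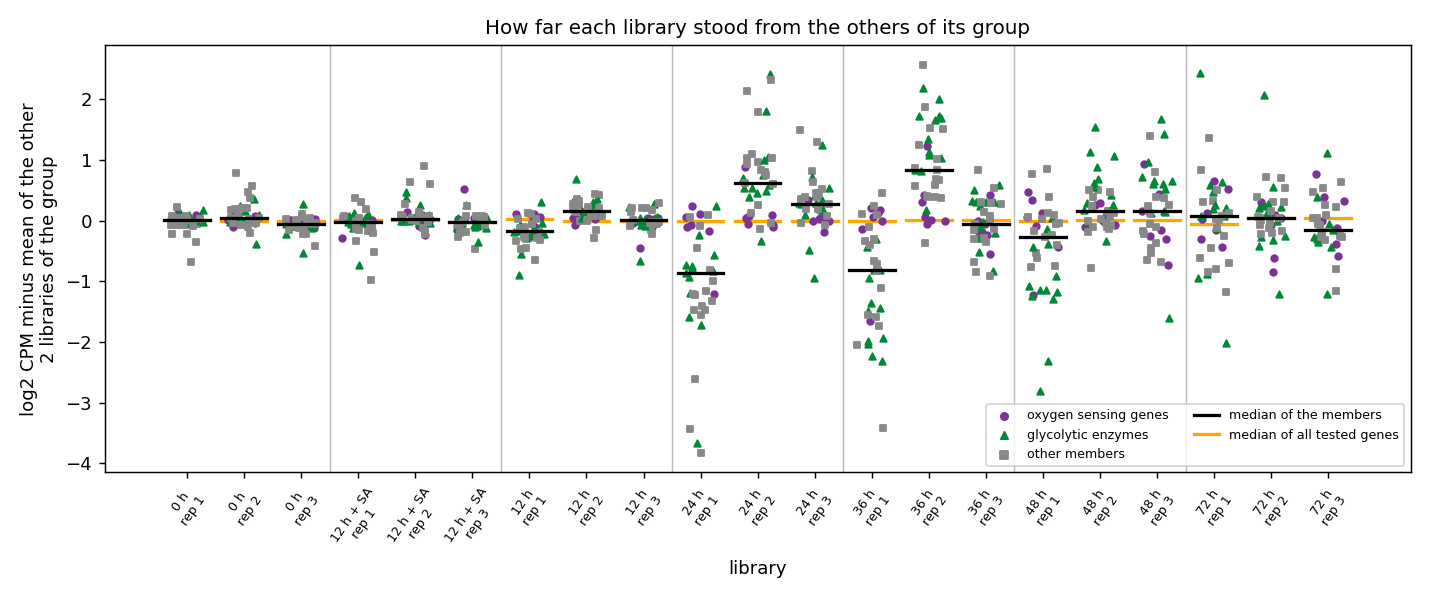
Each point is a tested row, placed by its log2 CPM minus the mean of the other 2 libraries of the group, with 12 h + SA left of 12 h. Black bars are medians of the 37 rows and orange bars medians of all 12360 tested genes. The members' median is -0.865 in 24 h replicate 1 and 0.832 in 36 h replicate 2, and the orange bars stay near 0.

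The difference was uneven between roles. The sensing genes had a median of -0.065 in 24 h replicate 1 and of 0.0659 in 36 h replicate 2. The glycolytic enzymes had medians of -0.836 in 24 h replicate 1, -1.44 in 36 h replicate 1, 1.35 in 36 h replicate 2 and -1.14 in 48 h replicate 1. The members farthest off in 24 h replicate 1 were Ankrd37 at -3.83, Hk2 at -3.67 and Bnip3 at -3.43, and the same genes stood at 2.57, 2.19 and 1.87 in 36 h replicate 2. The 11 erythroid markers had medians of 0.0285 and 0.192 in these libraries. In 36 h replicate 1 the 11 stromal markers were all above 0 and summed to 42.3 CPM, while in replicates 2 and 3 they summed to 0.193 and 0.418 CPM, with Sparc, Dcn, Fn1 and Col1a2 among those at 0 there. The part of these markers in the members' values was not tested.

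These libraries move the counts that rest on them. At 36 h against 24 h the 15 falls became 20 without 36 h replicate 2 and 19 without 24 h replicate 1, and 12 without 36 h replicate 1 or 24 h replicate 2. Bnip3, not called with all libraries (log2 change -0.91, adjusted p = 0.152), had -1.45 without 24 h replicate 1 (adjusted p = 0.00307) and -1.83 without 36 h replicate 2 (adjusted p = 0.0177). At 48 h against 36 h the 12 falls became 5 without 36 h replicate 2 and 6 without 48 h replicate 1, and the 8 rises became 5 without 36 h replicate 3. At 24 h against 12 h the 2 rises became 1 without 24 h replicate 2, and at 72 h against 48 h the 6 rises became 3 without 48 h replicate 3 or 72 h replicate 2. The 9 rises at 36 h against 24 h stayed 9 whichever library of those groups was left out. No matching counts over all tested genes are given for these refits. Whether such moves are particular to these rows was not tested.

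The rest of the pathway was read from lists that hold no member. Of 13 other glycolytic genes tested, 6 rose and 2 fell at 12 h against 0 h, beside 25.3% and 27.6% of all genes. Pklr, the pyruvate kinase of red cells and liver, averaged 614.9 ± 37.4 CPM at 12 h and 242.3 ± 2.82 CPM at 0 h (SD, n = 3 each), a log2 change of 1.34. At 72 h against 0 h, 5 rose and 4 fell, beside 43.3% and 46.5% of all genes. On library totals 5 rose and 8 fell, beside 2667 and 8251 of the 12360 tested genes. Bpgm, which makes the red cell's bisphosphoglycerate, averaged 3254 ± 456 CPM at 72 h and 17.57 ± 1.24 CPM at 0 h (log2 change 7.53 ± 0.14), and Pklr averaged 12.53 ± 2.29 CPM at 72 h (log2 change -4.27). A list of pyruvate entry into mitochondria and its use by pyruvate dehydrogenase had 12 tested genes, counting Cox4i1 and Lonp1. Both are mitochondrial genes that act in neither step. Of these 12, 4 rose and 8 fell at 72 h, and on library totals 2 rose and 10 fell, beside the same shares and counts of all genes. Pdk2, a sister of Pdk1, rose by 4.98, and Dlat and Pdha1, parts of pyruvate dehydrogenase, fell by 3.74 and 3.22 on the log2 scale.

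Of 13 tested genes of other HIF machinery, 1 rose and 2 fell at 12 h, and 7 rose and 5 fell at 72 h against 0 h. The shares of all genes were 25.3% and 27.6% at 12 h and 43.3% and 46.5% at 72 h. On library totals 4 rose and 8 fell at 72 h, beside 2667 and 8251 of the 12360 tested genes. Hif3a, a further alpha subunit, averaged 5.588 ± 0.192 CPM at 72 h and 127.6 ± 4.85 CPM at 0 h (log2 change -4.51). Crebbp and Ep300, coactivators of HIF and of many other factors, rose by 3.31 and 2.60. Of 28 other HIF targets, 11 rose and 9 fell at 12 h and 13 rose and 13 fell at 72 h, beside the same shares of all genes. On library totals 10 rose and 17 fell at 72 h, beside the same counts of all genes on that scale. Ccng2 and Mxi1, which restrain growth, rose by 7.10 and 6.12 at 72 h, and Mif, a cytokine, fell by 3.63. With SA, none of the 13 machinery genes or 13 other glycolytic genes was called in either direction. Of the 28 other HIF targets 3 fell, beside 0.364% of all tested genes. The falls were Pgm2 (log2 change -1.50, adjusted p = 0.00607), Ccng2 (-1.20, adjusted p = 0.00292) and Kdm4b (-0.46, adjusted p = 0.0477), the last named after its value was seen because the count is small. On library totals Kdm4b was not called (adjusted p = 0.305). At an unadjusted p under 0.05, 13 of the 28 other HIF targets differed with SA, all of them lower. The same threshold was passed by 1 of the 13 other glycolytic genes, 1 of the 12 genes of the pyruvate list and 0 of the 13 machinery genes. How many of all tested genes passed it was not counted, so these counts have no background beside them.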

How the data were processed

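Estimated counts per gene and TPM (transcript levels per length, scaled to a common sum) for 21 libraries were deposited by the authors, and 78.5% of the count values were whole within 1e-06. The submitters' processing notes name kallisto, STAR 2.5.3a and DESeq2, and the builds GRCm38.p5 and mm10; which tool made which table, and the strand setting, are not given in the sources used here. Estimated counts were rounded, filtered with filterByExpr (minimum count 10), scaled by TMM and fitted over all 21 libraries with edgeR 4.0.16 (quasi-likelihood, Benjamini-Hochberg adjustment over 12360 genes, threshold 0.05; R 4.3.3), with no replicate block. CPM use TMM library sizes. The biological coefficient of variation was 11.6%. The fit was tested on simulated data. Figures used matplotlib 3.10.9.

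Alternatives were DESeq2 1.42.0 and its size factors, library totals, no filter, a 2-fold threshold, the compared libraries alone, the replicate block, limma 3.58.1 on log2(TPM + 1) and log2(TPM + 0.1), and each replicate left out. Same-numbered replicates deviated together (every pair's correlation above 0.1 over 9001 genes) between 24 and 12 h (0.283 to 0.447), 72 and 48 h (0.227 to 0.293), and SA and its 12 h control (0.322 to 0.346). The other comparisons did not meet that rule for every pair, though some pairs passed 0.1 in the steps to 12, 36 and 48 h. Correlations there were 0.346, 0.149 and 0.0975 to 12 h, 0.232, 0.324 and 0.0559 to 36 h, and 0.345, 0.0838 and 0.34 to 48 h. Between 72 and 0 h they were 0.0194 to 0.0347.

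Members and gene lists were chosen with earlier results of these data known. Every tested member was a candidate for naming; of the other lists, up to 2 genes in each direction per comparison were named, those with the largest called change at a mean count of at least 100. GENCODE M21 gave gene positions.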

Additional observations from a re-analysis of the deposited data

How the results depend on the processing

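Of 1782 alternative values for the 129 called changes of single members, 1568 kept direction and call, 201 kept direction only and 13 reversed; causes were not tested. At 12 h against 0 h the members called lower (2) were 1 on library totals, 1 with log2(TPM + 0.1), 4 in the compared libraries alone, 0 past 2-fold and 1 to 1 with a replicate left out. At 24 h against 12 h the 2 higher were 6 alone, 1 past 2-fold and 1 to 3 with a replicate left out, and the 7 lower were 4 with log2(TPM + 0.1). At 36 h against 24 h library totals gave 5 higher and 27 lower, beside 1718 and 7851 of the 12360 tested genes. At 48 h against 36 h the 8 higher were 5 on library totals, 2 past 2-fold and 5 to 8 with a replicate left out, and the 12 lower were 4 with log2(TPM + 1), 7 with log2(TPM + 0.1), 5 to 14 with a replicate left out and 7 without 24 h replicate 1 and 36 h replicate 2. At 72 h against 48 h the 6 higher were 2 on library totals, 3 without a filter, 1 past 2-fold, 3 to 6 with a replicate left out and 9 without 24 h replicate 1 and 36 h replicate 2, and the 12 lower were 2 with log2(TPM + 1) and 4 with log2(TPM + 0.1). At 72 h against 0 h library totals gave 6 higher, beside 2667 of the 12360 tested genes. With SA the 0 higher became 1 alone, and the 6 lower became 13 without a filter, 13 with DESeq2, 26 alone, 18 without 24 h replicate 1 and 36 h replicate 2, and 1 to 5 with a replicate left out.

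With the replicate number as a block, the SA count was 10 lower; elsewhere the block moved no member count by more than 1.5 times.

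Reversed log2 changes with log2(TPM + 1) were 1.11 for Hk2 and 0.17 for Vhl at 36 h against 24 h, 0.66 for Hk2 and 0.88 for Vhl at 72 h against 0 h, and 0.18, 0.50 and 2.33 for the second Aldoa row in the steps to 48 and 72 h and over the whole course. With log2(TPM + 0.1) they were 0.12 for Hif1a and 0.79 for Vhl at 72 h against 0 h, and 0.15 and 0.46 for the second Aldoa row at 72 h against 48 h and 0 h. Vhl at 72 h against 0 h was 0.0579 with DESeq2 size factors in edgeR and 0.0575 with DESeq2's own test.

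Rows near the count filter (Epas1, Pfkp, Aldoc, the second Aldoa row) rest on few counts. Late directions depend on the scale: the median of all genes at 72 h against 0 h moved to -1.94 on library totals.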

Other observations

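Genes that were at least 1 log2 unit below the other replicates in 24 h replicate 1 and at least 1 above them in 36 h replicate 2 numbered 70, of which 11 were members; with a mean count of at least 100 they numbered 19, of which 11 were members. This rule was built on libraries in which the members had already been seen to stand apart. The members' share among these genes is therefore no test. The other 8 of the 19, named after their values were seen, were Kcnh2, Ehf, Ampd2, Prelid2, Myh7b, Btn1a1, Fos and Tph1. Kcnh2, a potassium channel, stood at -2.45 in 24 h replicate 1 and at 2.65 in 36 h replicate 2. Ampd2, an AMP deaminase, stood at -1.70 and 2.13 in these libraries. Prelid2 stood at -1.64 and 1.44.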
